A study of Saccharomyces cerevisiae with 16 samples.

Results

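Of the 6174 yeast genes on the arrays, 9 are described here: 8 plasma membrane permeases and the sensor that governs most of them. They are PTR2 (YKR093W), AGP1 (YCL025C), GNP1 (YDR508C), BAP2 (YBR068C), BAP3 (YDR046C), TAT1 (YBR069C), TAT2 (YOL020W), DIP5 (YPL265W) and SSY1 (YDR160W). They were taken by systematic name, and all 9 matched a feature of the arrays. The set was drawn around PTR2 because PTR2 had the lowest ratio of all genes tested at 30 min in both strains. The 30 min ratios of these genes are therefore a description without p-values.

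RNA of Saccharomyces cerevisiae in rich medium (YPD) was compared between cultures given 20 mM KOH, which makes the medium alkaline, and cultures of the same strain given 20 mM KCl. The wild type was W303-1A, and the mutant, MCY5278, carries msn2::kanMX4 and msn4::hphMX4 and so lacks the stress transcription factors Msn2 and Msn4. Cells were harvested at 10 or 30 min, which gives 4 groups of 4 two-colour arrays each. Within a group, 2 arrays had the KOH sample labelled with Cy3 and 2 had it labelled with Cy5. The series asks about the protein kinase A pathway, which controls Msn2 and Msn4, in the alkaline response. Every array compared KOH with KCl within 1 strain and time, so the ratios do not give the level of a gene in one strain against the other. For the same reason they do not check the deletions: MSN2 had a ratio on 8 of 8 mutant arrays and MSN4 on 5 of 8.

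Ptr2 imports dipeptides and tripeptides, and the other permeases import free amino acids, in each case together with protons. Amino acids outside the cell are sensed by the SPS complex of Ssy1, Ptr3 and Ssy5. Ssy1 resembles a permease but signals instead of transporting, Ptr3 is its partner on the inner side of the membrane, and Ssy5 is a protease. When the sensor is engaged, Ssy5 clips the latent transcription factors Stp1 and Stp2, which then enter the nucleus and switch on permease genes. PTR2 has a further control: the repressor Cup9 holds it off until the ubiquitin ligase Ubr1, stimulated by imported dipeptides, marks Cup9 for destruction.

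Values below are log2 ratios of KOH over KCl, after each array was centred on its median. The base and the direction are likely rather than stated in the sources used here. An error after ± is the standard error of a linear model (limma) fitted to all 16 arrays, and n is 4 arrays unless given. Testing required at least 3 arrays with a value, and both dyes, in every group of the comparison, and a gene passed at a two-sided adjusted p below 0.05 (Benjamini-Hochberg over all genes tested). The arrays come from 2 biological replicates per condition, but the labels do not say which arrays share an extract, so the p-values are too small where they do. Between 2073 and 5443 genes had a value on an array, and the correlation across genes between arrays of 1 group ran from 0.542 to 0.865. A pair of features recurs below. The numbers that serve as array titles fall into a pair of ranges, with arrays 1 to 3 of every group in one and array 4 in the other. These are called the larger and the smaller slide series here, although the labels do not say what the numbers stand for. At 30 min arrays 1 and 2, and arrays 3 and 4, resembled each other more than arrays across these pairs. Of the 144 cells of the 9 genes, 29 held no value. PTR2, AGP1, BAP2 and BAP3 were measured on all 16 arrays, DIP5 on 15, TAT2 on 12, TAT1 on 10, SSY1 on 9 and GNP1 on 5.

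**Figure D1:**
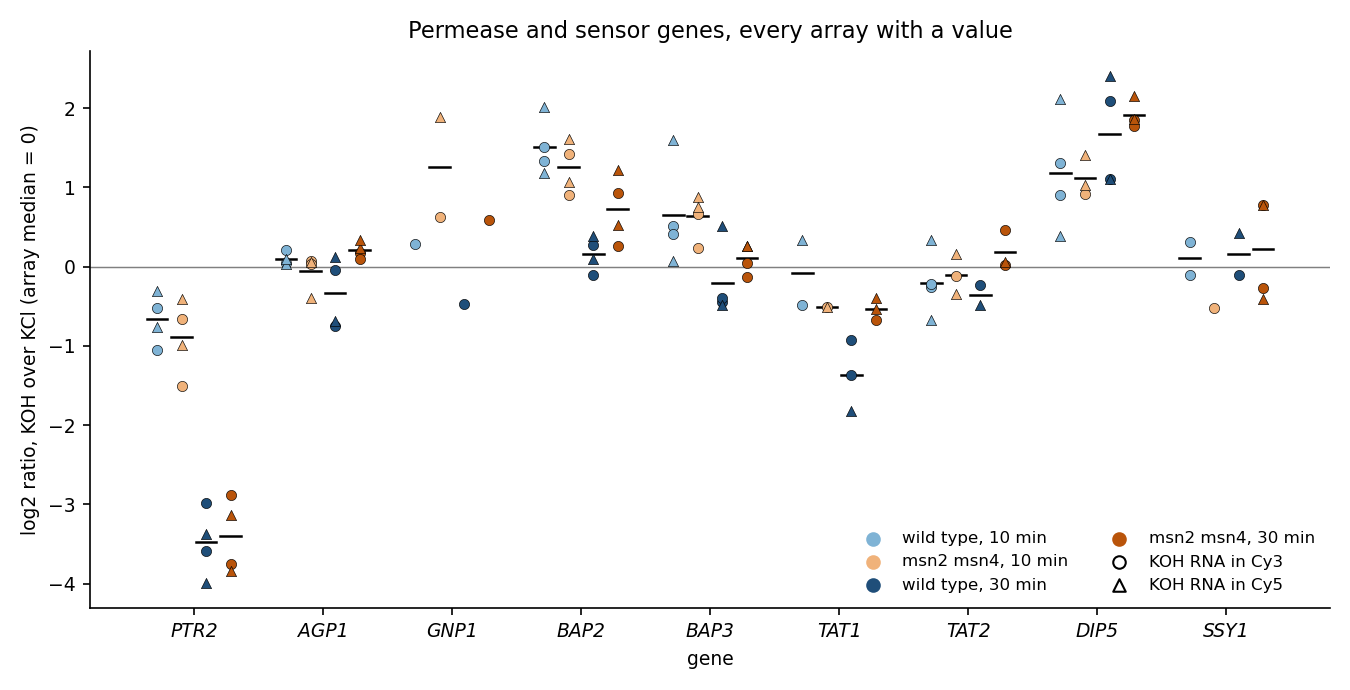
Log2 ratio of KOH over KCl (y axis, array median at 0) of the 9 genes (x axis), with 1 point per array that held a value; colours give strain and time, circles and triangles the dye of the KOH RNA, and short lines the mean of a group with at least 2 values. PTR2 lies between -3.99 and -2.89 on all 8 arrays of 30 min, DIP5 is above 0 on each of its 15 arrays, and the group means of BAP2 are highest at 10 min.

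At 10 min the genes moved in both directions, with the same calls in both strains. BAP2, BAP3 and DIP5 rose and PTR2 fell, while AGP1 and TAT2 did not pass the test. That is 3 rises and 1 fall among 6 tested genes in each strain, or 4 calls of 6. Of all genes tested 42.7% passed in wild type and 36.5% in the mutant. By direction, in wild type 21.8% of all 2670 genes tested rose and 20.9% fell, and in the mutant 18.6% of 3042 rose and 17.9% fell. The median ratio of the 6 genes was 0.37 in wild type and 0.29 in the mutant, where all genes tested had medians of -0.04 and 0.01.

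BAP2 encodes the main permease for leucine, isoleucine and valine. In wild type at 10 min its ratio was 1.33, 1.18, 2.01 and 1.51 on arrays 1 to 4, and in the mutant it was 0.91, 1.07, 1.61 and 1.43. All 8 arrays were above 0, and the ranges of the strains overlapped. The fitted rise was 1.51 ± 0.16 in wild type, which is 2.84-fold, with an adjusted p of 1.24e-06 by limma. In the mutant it was 1.25 ± 0.16, or 2.38-fold, with a limma adjusted p of 1.47e-05.

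BAP3, a close relative that takes the same branched-chain amino acids among others, rose less. Its wild type values were 0.51, 0.07, 1.60 and 0.41, so array 3 stood well above the other 3. The mutant values were 0.67, 0.88, 0.75 and 0.23, all above 0. The fit gave 0.65 ± 0.19 in wild type (limma adjusted p = 0.00951) and 0.63 ± 0.19 in the mutant (limma adjusted p = 0.0134). Without array 3 the wild type value was 0.37 and did not pass (limma adjusted p = 0.123), and without array 1 the mutant value was 0.55 and did not pass either (limma adjusted p = 0.0674).

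DIP5 encodes the permease for the acidic amino acids glutamate and aspartate. Its ratio at 10 min was 1.31, 0.39, 2.12 and 0.90 in wild type, a wide spread entirely above 0. The mutant had values on 3 arrays, arrays 2 to 4, of 1.41, 1.03 and 0.91. The fitted rise was 1.18 ± 0.24 in wild type (2.26-fold, limma adjusted p = 0.000727) and 1.08 ± 0.28 in the mutant (n = 3, 2.12-fold, limma adjusted p = 0.00611). BAP2 and DIP5 passed in both strains under every alternative setting in which they were tested.

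PTR2 was already lower at 10 min, by far less than later. Its wild type values were -0.52, -0.76, -0.31 and -1.06, and its mutant values -0.66, -0.41, -0.995 and -1.51. All 8 arrays were below 0, and array 4, on the smaller slide series, was the lowest in each strain. The fitted fall was -0.66 ± 0.20 in wild type (1.58-fold lower, limma adjusted p = 0.0127) and -0.89 ± 0.20 in the mutant (1.86-fold lower, limma adjusted p = 0.00208). Without array 4 the wild type fall was -0.52 and did not pass (limma adjusted p = 0.0857). On the larger slide series alone the values were -0.48 (limma adjusted p = 0.0925) and -0.63 (limma adjusted p = 0.0268), and with the slide series as a block they were -0.84 (limma adjusted p = 0.000788) and -1.07 (limma adjusted p = 0.000118). Counted from the lowest ratio, PTR2 was gene 303 of 2670 in wild type and gene 191 of 3042 in the mutant.

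AGP1, a permease of broad specificity for neutral amino acids, stayed near the array median at 10 min. Its values were 0.04, 0.03, 0.10 and 0.21 in wild type, and 0.07, 0.06, -0.39 and 0.03 in the mutant. The 95% intervals of the fitted values were -0.20 to 0.39 in wild type and -0.35 to 0.24 in the mutant, with limma adjusted p-values of 0.621 and 0.771. TAT2, the high-affinity permease for tryptophan and tyrosine, read -0.26, -0.68, 0.33 and -0.22 in wild type. In the mutant it had values on arrays 2 to 4 of -0.35, 0.16 and -0.12. Neither strain passed for TAT2 (limma adjusted p = 0.323 and, with n = 3, 0.728), and both sets of values span 0.

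The remaining genes had too few values at 10 min for a test. TAT1, which carries tyrosine, branched-chain amino acids and, with low affinity, tryptophan, had values on arrays 3 and 4 only, at 0.34 and -0.49 in wild type and at -0.52 and -0.51 in the mutant. GNP1, the high-affinity glutamine permease and a close relative of AGP1, read 0.29 on array 4 of wild type, and 1.89 and 0.63 on arrays 3 and 4 of the mutant. SSY1 read -0.11 and 0.32 on arrays 1 and 4 of wild type and -0.53 on array 4 of the mutant. No direction was read from these values.

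**Figure D2:**
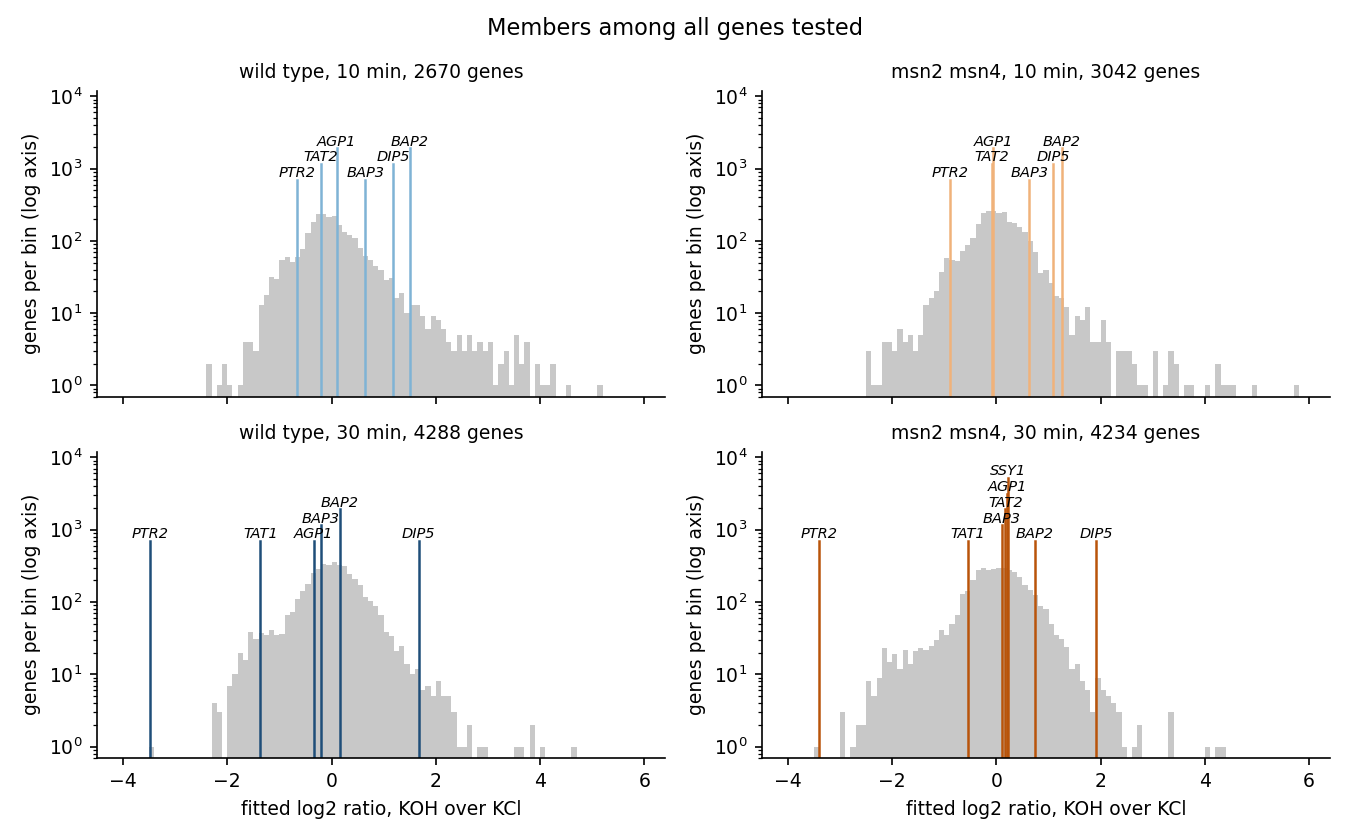
Fitted log2 ratio of KOH over KCl (x axis) for all genes tested in each group, as the number of genes per bin of 0.1 (y axis, log scale), with coloured lines at the tested genes of the set. PTR2 is inside the spread of all genes at 10 min and is the lowest gene at 30 min in both strains.

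At 30 min PTR2 lay at the bottom of the response in both strains. Its values were -2.98, -3.38, -3.99 and -3.59 in wild type, and -2.89, -3.14, -3.84 and -3.76 in the mutant. No array came near 0, and the strains covered almost the same range. The fit gave -3.48 ± 0.20 in wild type, 11.2-fold lower in KOH than in KCl, and -3.41 ± 0.20 in the mutant, 10.6-fold lower. By the way the set was chosen these are the lowest values of 4288 and 4234 genes. The next lowest genes in wild type were YRO2 at -2.28, UTP20 at -2.24 and CHA1 at -2.23. In the mutant they were RPS22A at -2.96, YRO2 at -2.96 and RPL22A at -2.92, so the gap below them was smaller there. These fitted values lay within the range of the mutant arrays of PTR2. Under quantile normalization the wild type value of PTR2 was -4.19 and the mutant value -3.24. From 10 to 30 min its ratio went down by a further -2.82 ± 0.28 in wild type and -2.51 ± 0.28 in the mutant. In this change over time it was not the lowest: it was gene 7 of 2607 in wild type and gene 6 of 2934 in the mutant.

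DIP5 lay at the other end. Its values at 30 min were 1.10, 1.10, 2.40 and 2.09 in wild type and 1.85, 1.87, 2.15 and 1.78 in the mutant, and none overlapped those of another gene of the set in the same group. In wild type arrays 3 and 4 read higher than arrays 1 and 2, while the mutant arrays lay close together. The fit gave 1.67 ± 0.24 in wild type, which is 3.19-fold, and 1.91 ± 0.24 in the mutant, which is 3.76-fold. DIP5 was gene 56 from the highest in wild type and gene 37 in the mutant. Its change from 10 to 30 min was 0.50 ± 0.33 in wild type and 0.83 ± 0.36 in the mutant.

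BAP2 was lower at 30 min than at 10 min. In wild type it read -0.11, 0.09, 0.39 and 0.27, on both sides of 0, and every array was below every array of 10 min. In the mutant it read 0.26, 0.52, 1.22 and 0.93, all above 0 and overlapping the values of 10 min. The fitted ratio was 0.16 ± 0.16 in wild type and 0.73 ± 0.17 in the mutant, and the change from 10 to 30 min was -1.35 ± 0.23 and -0.52 ± 0.23. BAP3 read -0.45, -0.48, 0.51 and -0.39 in wild type and 0.05, 0.26, 0.25 and -0.13 in the mutant. Its fitted ratios were -0.20 ± 0.19 and 0.11 ± 0.19, with changes over time of -0.85 ± 0.26 and -0.53 ± 0.26. Array 3 of wild type was the only one of its group above 0.

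TAT1 was the second lowest gene of the set at 30 min. It read -1.37, -1.82 and -0.93 on arrays 1, 2 and 4 of wild type, and -0.40, -0.54 and -0.67 on arrays 2 to 4 of the mutant. All 6 values were below 0, and those of the 2 strains did not overlap. Arrays 1 and 2, which resembled each other at 30 min, both had a value in wild type, but only array 2 did in the mutant. The part this has in the gap was not tested. The fit gave -1.37 ± 0.21 in wild type and -0.54 ± 0.21 in the mutant (n = 3 each). TAT1 lies next to BAP2 on the same chromosome, with no other protein-coding gene between them in the RefSeq annotation (assembly R64), and the fitted ratios of the pair at 30 min were 0.16 and -1.37 in wild type and 0.73 and -0.54 in the mutant, with BAP2 first.

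AGP1 at 30 min read -0.75, -0.69, 0.12 and -0.04 in wild type, again with arrays 1 and 2 apart from arrays 3 and 4. In the mutant it read 0.17, 0.23, 0.33 and 0.10. The fit gave -0.34 ± 0.14 and 0.21 ± 0.14. TAT2 had 2 values in wild type, -0.24 and -0.49 on arrays 1 and 2, and 3 in the mutant, 0.46, 0.06 and 0.02 on arrays 1, 3 and 4. GNP1 had 1 value in each strain, both on array 4, at -0.48 in wild type and 0.59 in the mutant. TAT2 and GNP1 thus had values below 0 in wild type and above 0 in the mutant, on few arrays.

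SSY1, the sensor itself, had values on arrays 3 and 4 of wild type, at 0.42 and -0.11. In the mutant it was measured on all 4 arrays, at 0.77, 0.78, -0.42 and -0.27, for a fitted value of 0.22 ± 0.23. The sign differed between arrays 1 and 2 and arrays 3 and 4. PTR3, its partner, split in the same way there, with 1.04, 1.00, -0.67 and -0.32. These 2 genes gave no common direction over the group, and the part that the resemblance of arrays 1 and 2 has in this was not tested.

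The set was chosen on the 30 min contrasts, so no calls are given for its genes at that time. Among all genes tested the shares past the threshold at 30 min were 38.0% in wild type (19.2% higher, 18.8% lower) and 41.1% in the mutant (22.0% higher, 19.1% lower). The order of the mean ratios at 30 min ran from PTR2 through TAT1 to a middle group and then to BAP2 and DIP5 in both strains. PTR2, TAT1 and DIP5 did not overlap their neighbours in this order in either strain, while the genes between TAT1 and DIP5 each overlapped the next of these middle genes. At 10 min in wild type every gene overlapped its neighbours.

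The strains were then compared, as mutant minus wild type, to ask whether the KOH response of these genes differed without Msn2 and Msn4. At 10 min the 6 differences lay between -0.25 and 0.12, and none passed (limma). Their 95% intervals were -0.81 to 0.35 for PTR2, -0.57 to 0.26 for AGP1, -0.73 to 0.22 for BAP2, -0.56 to 0.53 for BAP3, -0.41 to 0.64 for TAT2 and -0.85 to 0.66 for DIP5. None of the 6 had an unadjusted p below 0.05. The limma adjusted p-values were 0.765 or higher, and 0.974% of all 2361 genes tested passed.

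**Figure D3:**
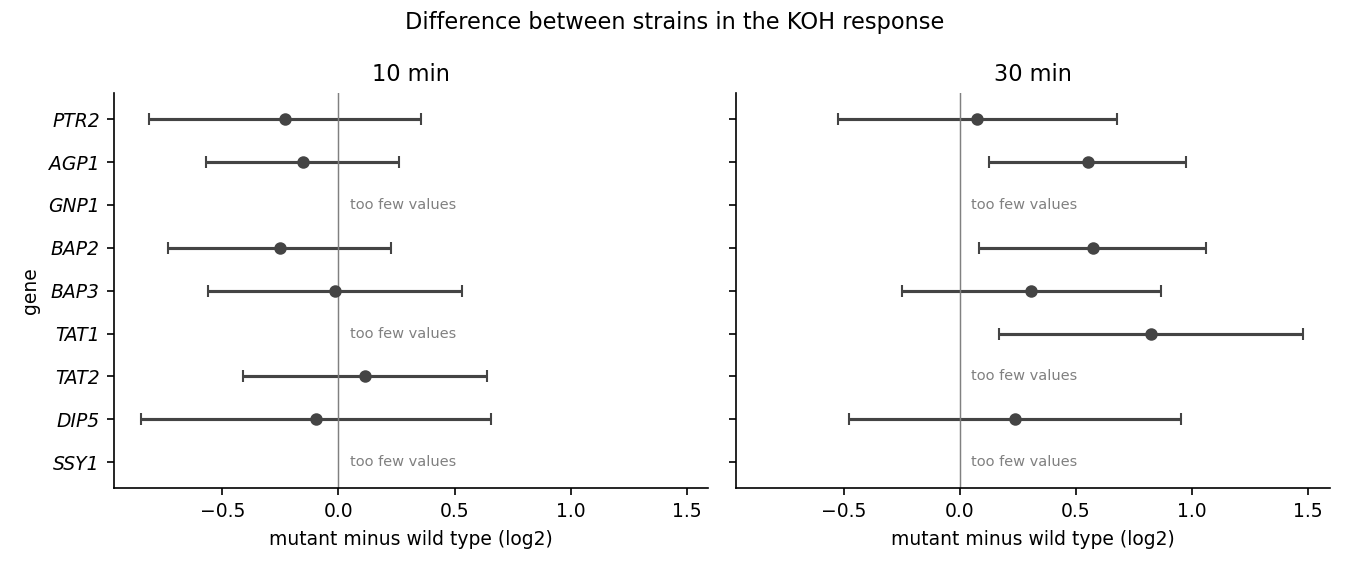
Difference between the strains in the log2 ratio of KOH over KCl (x axis, mutant minus wild type) for each gene (y axis) at 10 min (left) and 30 min (right); points are fitted values and bars are 95% intervals. At 10 min every interval spans 0, and at 30 min those of AGP1, BAP2 and TAT1 lie above 0 while their adjusted p-values are 0.133 or higher.

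At 30 min the differences of the 6 genes with enough values lay between 0.08 and 0.82, and again 0 of 6 passed after adjustment, against 1.01% of 3978 genes. Before adjustment TAT1, BAP2 and AGP1 had a limma p below 0.05. The share of all genes with such a p was not counted, so nothing is read from this about the set. TAT1 differed by 0.82 ± 0.30 (95% interval 0.17 to 1.48, limma adjusted p = 0.152), with n = 3 in each strain, from differing sets of array numbers. BAP2 differed by 0.57 ± 0.23 (0.08 to 1.06, limma adjusted p = 0.178), with overlapping arrays. AGP1 differed by 0.55 ± 0.20 (0.13 to 0.97, limma adjusted p = 0.133), also with overlapping arrays, and without array 3 of wild type the difference was 0.72 and passed (limma adjusted p = 0.0392). BAP3 differed by 0.31 (-0.25 to 0.87, limma adjusted p = 0.553) and DIP5 by 0.24 (-0.48 to 0.95, limma adjusted p = 0.742). For PTR2, chosen for its fall in both strains, the difference is a description: 0.08 with an interval of -0.52 to 0.68, and 0.95 under quantile normalization.

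The SPS pathway genes outside the set had fitted ratios between -0.59 and 0.63 where they were tested. Of these genes, at 10 min 2 of 6 tested rose in wild type and 0 of 5 passed in the mutant. At 30 min 1 rose and 2 fell of 9 in wild type, and 3 of 8 rose in the mutant. Of all genes tested, at 10 min 21.8% rose in wild type and 18.6% in the mutant, and at 30 min 19.2% and 22.0% rose and 18.8% and 19.1% fell. In the order given, the list's median ratios were 0.19, -0.01, 0.16 and 0.21. STP1, one of the 2 latent factors, rose in 3 groups: 0.34 ± 0.13 at 10 min in wild type (n = 3, limma adjusted p = 0.0425), then at 30 min 0.63 ± 0.11 in wild type (limma adjusted p = 0.000392) and 0.39 ± 0.11 in the mutant (limma adjusted p = 0.0117). In the mutant at 30 min it did not pass without array 3 (0.35, limma adjusted p = 0.0537) or without array 4 (0.33, limma adjusted p = 0.0538). Over the alternatives the limma adjusted p of STP1 rose to 0.333, 0.0533 and 0.206 in these 3 groups, so each call was lost under at least 1 of them. STP2, the other factor, passed in no group. GRR1, the F-box protein of a ubiquitin ligase needed for SPS signalling, rose in wild type at 10 min (0.57 ± 0.15, n = 3, limma adjusted p = 0.0123) and fell at 30 min (-0.59 ± 0.16, n = 3, limma adjusted p = 0.0142). Both calls of GRR1 were lost when only the compared group was fitted (limma adjusted p = 0.07 and 0.0683), and the limma adjusted p rose to 0.0822 and 0.069 over the alternatives. The smaller calls came at 30 min: YCK2 was lower in wild type by -0.34, and YCK1 and ASI3 were higher in the mutant by 0.40 and 0.45. The 2 casein kinases Yck1 and Yck2 take part in SPS signalling, and Asi3 belongs to an inner nuclear membrane complex that keeps unprocessed Stp1 and Stp2 inactive. YCK2 did not pass without array 1 or without array 2 (-0.29 and -0.26, limma adjusted p = 0.126 and 0.154), and ASI3 did not pass without array 1, 2 or 3 (limma adjusted p = 0.0692, 0.133 and 0.0608). YCK1 did not pass when only the compared group was fitted (limma adjusted p = 0.137). Over the alternatives the number of pathway genes past the threshold ran from 0 to 3 in each of the 4 groups.

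Among the genes of peptide uptake and its control, the repressor gene CUP9 did not pass where it was tested. It read 0.34 in the mutant at 10 min (limma adjusted p = 0.202), 0.05 in wild type at 30 min (limma adjusted p = 0.853) and -0.04 in the mutant at 30 min (limma adjusted p = 0.857). UBR1 rose at 10 min in wild type (0.54 ± 0.14, limma adjusted p = 0.00597) and at 30 min in the mutant (1.10 ± 0.14, limma adjusted p = 2.55e-05). The former was lost in the weakest pairing of opposite dyes (limma adjusted p = 0.098). Its arrays at 30 min read 0.16, -0.13, 0.44 and 0.40 in wild type and 1.18, 1.43, 0.90 and 0.88 in the mutant, without overlap. The strain difference in UBR1 at 30 min, singled out after its values were seen, was 0.88 ± 0.20 with a limma adjusted p of 0.0502. Over the alternatives this adjusted p ran from 0.0242 to 0.749. At 10 min the difference in UBR1 had the other sign, at -0.53, with n = 3 in the mutant. It had an unadjusted limma p below 0.05 and did not pass after adjustment. OPT2, of the oligopeptide transporter family, fell in the mutant at 10 min (-1.09 ± 0.22, n = 3, limma adjusted p = 0.00123) and at 30 min (-0.61 ± 0.19, limma adjusted p = 0.0203). The latter did not pass without array 3 (-0.44, limma adjusted p = 0.116) or without array 4 (-0.43, limma adjusted p = 0.111). The value of -1.09 for OPT2 was the lowest on the peptide list in any group.

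Other amino acid permeases moved mostly upward, and earlier rather than later. In wild type at 10 min 5 of 9 tested rose and none fell, with a median ratio of 1.02, and in the mutant 4 rose and 1 fell of 7, with a median of 1.14. Of all genes tested 21.8% rose and 20.9% fell in wild type, and 18.6% rose and 17.9% fell in the mutant. AGP2, a plasma membrane protein known for carnitine and polyamine uptake, read 3.04, 2.59, 2.49 and 2.65 in wild type and 3.57, 2.55, 2.09 and 2.11 in the mutant at 10 min. The fit gave 2.69 ± 0.18 (limma adjusted p = 2.29e-09) and 2.58 ± 0.18 (limma adjusted p = 6.66e-09). The S-methylmethionine permease gene MMP1 rose by 1.95 ± 0.19 and 2.03 ± 0.19, the proline permease gene PUT4 by 1.41 ± 0.13 and 1.39 ± 0.12, and the high-affinity methionine permease gene MUP1 by 1.02 ± 0.14 and 1.14 ± 0.14. GAP1, the general amino acid permease gene of nitrogen-poor medium, fell in the mutant (-0.74 ± 0.17, limma adjusted p = 0.00231) and read -0.36 in wild type (limma adjusted p = 0.0942).

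At 30 min 4 of 11 other permease genes rose and 1 fell in wild type, and 5 of 10 rose in the mutant, with medians of 0.14 and 0.40. The shares over all genes were 19.2% higher and 18.8% lower in wild type, and 22.0% and 19.1% in the mutant. Over the alternatives the other permease genes past the threshold numbered 1 to 5 in wild type and 3 to 6 in the mutant. In wild type the calls of GAP1, PUT4, SAM3 and UGA4 were each lost under at least 1 alternative. Their limma adjusted p-values rose to 0.152, 0.108, 0.218 and 0.13. AGP2 was still higher, by 1.26 ± 0.18 and 1.25 ± 0.18. Between 10 and 30 min the ratios of AGP2, PUT4, MUP1 and MMP1 fell in both strains, by limma. The change was -1.43 ± 0.25 and -1.33 ± 0.25 for AGP2, and -2.29 ± 0.27 and -1.46 ± 0.27 for MMP1. In all, 4 of 9 permease genes went down over time in wild type, where 13.1% of 2607 genes did, and 4 of 7 in the mutant, where 10.1% of 2934 did. SAM3, the S-adenosylmethionine permease gene, went the other way in the mutant, by 0.76 ± 0.25 (limma adjusted p = 0.0433), as did the lysine permease gene LYP1 by 0.61 ± 0.19 (limma adjusted p = 0.0378). In wild type 0 of 9 went up. Under quantile normalization AGP2 in wild type changed by -0.68 and did not pass (limma adjusted p = 0.0556), and in the weakest pairing of opposite dyes PUT4 and MUP1 in wild type did not pass (limma adjusted p = 0.121 and 0.131). With 1 array left out, PUT4 in the mutant did not pass without array 1 or 2 of 10 min (-0.53 and -0.58, limma adjusted p = 0.065 and 0.0517), nor LYP1 without array 1, 3 or 4 of 30 min (limma adjusted p = 0.0771, 0.0647 and 0.0585). The calls of MUP1 and SAM3 in the mutant were lost without any 1 of the arrays except array 3 of 10 min, with limma adjusted p-values up to 0.0979 and 0.0986. Of all genes 6.83% went up over time in wild type and 6.07% in the mutant. Of the 9 genes, PTR2, BAP2 and BAP3 also had lower fitted ratios at 30 min than at 10 min in both strains, given above without a test, whereas DIP5 had higher ones. AGP1 changed by -0.44 ± 0.20 in wild type and by 0.27 ± 0.20 in the mutant. TAT2 changed by 0.26 ± 0.27 in the mutant (n = 3 at each time) and had too few values in wild type. TAT1, GNP1 and SSY1 had too few values in both strains.

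Permeases are removed from the membrane through the ubiquitin ligase Rsp5 and its arrestin-like adaptors. Of the genes of permease traffic and turnover, 2 of 8 rose at 10 min in wild type and 3 of 7 in the mutant. At 30 min 1 of 9 rose in wild type, while 4 of 10 rose and 1 fell in the mutant. Among all genes tested 21.8% and 18.6% rose at 10 min, and 19.2% and 22.0% at 30 min, in wild type and mutant. In the mutant at 30 min 19.1% of all genes fell. Over the alternatives the genes of this list past the threshold at 10 min numbered 1 to 5 in wild type and 2 to 4 in the mutant. At 30 min they numbered 0 to 3 and 2 to 6. RSP5 rose by 1.33 ± 0.19 in the mutant at 30 min (limma adjusted p = 4.72e-05) and by 0.54 in wild type at 30 min (limma adjusted p = 0.0333). The wild type value did not pass without array 3 (0.36, limma adjusted p = 0.202) or without array 4 (0.33, limma adjusted p = 0.233). The adaptor gene ECM21 rose by 1.04 ± 0.26 at 10 min in wild type, and in the mutant by 1.38 ± 0.26 at 10 min and 1.21 ± 0.27 at 30 min. In wild type its call was lost without array 3, where the value was 0.57 (limma adjusted p = 0.0553). NPR1, a kinase that protects permeases from removal, rose by 0.73 and 0.77 at 10 min in wild type and mutant. No gene of this list, of the SPS list or of the other permeases passed the test for a difference between strains (limma). Over the alternatives up to 1 gene of the other permeases passed at 10 min, and at 30 min up to 1 of them and 2 of the traffic list. Without adjustment, p was below 0.05 for ART10 and RSP5 of the traffic list, STP2 and YCK1 of the SPS list, and LYP1, SAM3, MMP1 and UGA4 of the other permeases at 30 min, and for STP2 at 10 min. The share of all genes with such a p was not counted, so nothing is read from the length of this list.

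The vacuolar amino acid transporters and the nitrogen regulators gave mixed counts. Of the vacuolar list at 10 min, 2 rose of 4 tested in wild type, and 2 rose and 1 fell of 7 in the mutant. At 30 min 4 rose and 2 fell of 7 in wild type, and 2 rose and 2 fell of 9 in the mutant. Of all genes tested 42.7% and 36.5% passed at 10 min, and 38.0% and 41.1% at 30 min, in wild type and mutant. Over the alternatives the vacuolar genes past the threshold at 10 min numbered 0 to 3 in wild type and 0 to 4 in the mutant. At 30 min they numbered 1 to 6 and 1 to 4. VBA1, a vacuolar transporter of basic amino acids, rose by 0.80 in wild type and 0.94 in the mutant at 30 min. Of the 7 regulators, 1 rose and 1 fell of 3 tested in wild type at 10 min, and 1 rose of 4 in the mutant. At 30 min 2 rose and 2 fell of 5 in wild type, and 2 rose of 4 in the mutant. Among them GLN3, the GATA factor that activates genes for poor nitrogen sources, rose in all 4 groups. Its ratios were 0.80 in wild type and 1.13 (n = 3) in the mutant at 10 min, then 0.89 and 0.98 at 30 min. Without array 4 of wild type at 10 min its value was 0.66 (limma adjusted p = 0.0509). On the larger slide series GLN3 did not pass in wild type at either time (limma adjusted p = 0.0924 at 10 min and 0.0532 at 30 min).

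**Figure D4:**
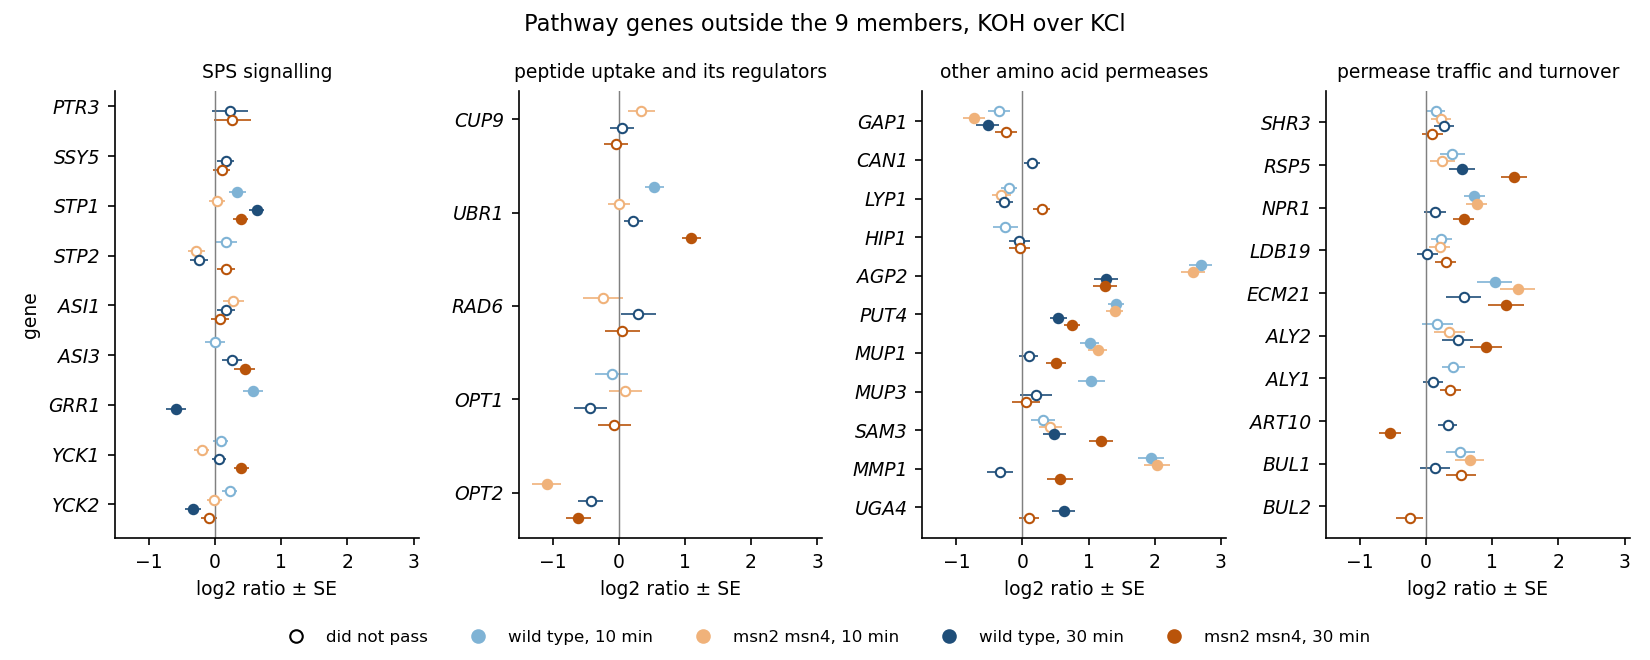
Fitted log2 ratio of KOH over KCl with its standard error (x axis) for genes of 4 lists outside the set (y axis), in each strain and time; filled points passed the test in their group and open points did not. The other permeases AGP2, MMP1, PUT4 and MUP1 are highest at 10 min, and the SPS genes lie between -0.59 and 0.63.

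Among the genes measured on every array, the 5 whose ratios lay closest to those of PTR2 were all ribosomal protein genes. The share of ribosomal protein genes among the genes compared was not counted. Among 1476 other genes measured on all 16 arrays, the mean absolute difference from PTR2 was 0.741 for RPS22A, 0.786 for RPS10A, 0.807 for RPS0B, 0.816 for RPS16B and 0.8294 for RPL27B. None tracks PTR2 closely. RPS22A had group means of -1.38 and -1.12 at 10 min in wild type and mutant and -1.96 and -2.96 at 30 min, so it was lower than PTR2 early and less low later. Each of these 5 genes has a near-identical partner gene, whose signals the probes may not separate.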

How the data were processed

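The values of the 16 two-colour arrays are log ratios as deposited by the authors, read here as log2 of KOH over KCl. The highest value, 16.268, lies just above the 16-bit range in base 2, on 1 array, while the highest on any other array was 8.087. Within a group all arrays, whatever their dye order, correlated above 0, and the direction was taken as common to them. How the arrays were scanned, background-corrected and normalized, and why some cells are empty, is not given in the sources used here. Medians ran from -0.285 to 0.2615 and were subtracted.

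A linear model (limma 3.58.1, R 4.3.3) was fitted to the whole table, with a coefficient for each group and a dye effect for each gene. It was also run on simulated data with independent noise on every array. Such data cannot show how shared extracts affect the p-values. Tests were two-sided with Benjamini-Hochberg adjustment over all genes tested. Genes named beyond the 9 are list members past the threshold, up to 4 each way, MSN2 and MSN4, and the 5 genes closest to PTR2; fewer are named in places. CUP9, STP2, PTR3, the next lowest genes at 30 min and the genes with an unadjusted p below 0.05 between strains were named after their values were seen. The members, lists and tests were chosen with earlier results of these data known. Alternatives changed the dye term, arrays fitted, centring, normalization, slide series, minimum number of values, pairing of opposite dyes, moderation, or left out 1 array. The fit on the larger slide series was added after seeing the data. The number of arrays limits the precision. Gene names come from the RefSeq table (assembly R64). Gene sequences were not used here.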

Additional observations from a re-analysis of the deposited data

Results flagged for a closer look

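In 21 groups with 4 values for a gene of the set, the distance of the highest or lowest array from the others was checked (Dixon's ratio, 95% limit), and 2 were past the limit, where chance gives about 1 in 20. AGP1 in the mutant at 10 min read -0.392 on array 3, while the other 3 arrays lay between 0.032 and 0.067. BAP3 in wild type at 30 min read 0.51 on array 3, while the other 3 lay between -0.48 and -0.391.

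TAT2 at 30 min had all 3 mutant arrays above 0 and both wild type arrays below 0, with means that differed by 0.5417. This difference was not tested under the minimum of 3 arrays per group. With a minimum of 2 it was 0.53 and did not pass (limma adjusted p = 0.349).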

How the results depend on the processing

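No paired analysis was possible because the labels give no replicate numbers and do not say which arrays share an extract; averaging arrays of opposite dye in all 16 pairings stood in for it. The members past the threshold in wild type at 10 min numbered 4 of 6, and 2 on the larger slide series only and in the lowest of the 16 pairings. For mutant minus wild type at 30 min the count was 0, with 0 to 1 when an array was left out, the 1 being without array 3 of wild type. In the mutant at 10 min the count ran from 3 to 6 over the 16 pairings, which tested 8 members. At 10 min BAP3 passed in 10 of the 16 pairings in wild type and in 7 in the mutant. PTR2 passed in 9 in wild type and in 16 in the mutant. BAP3 in wild type at 10 min did not pass on the larger slide series (limma adjusted p = 0.054). The sign of small differences turned in places. Under quantile normalization mutant minus wild type at 10 min was 0.16 for BAP2, 0.16 for BAP3 and 0.33 for DIP5, and on the larger slide series it was 0.0403 for BAP3. With 1 array left out, AGP1 in the mutant at 10 min ran from -0.10 to 0.0625 and SSY1 in the mutant at 30 min from -0.0499 to 0.52. Mutant minus wild type ran from -0.29 to 0.26 for BAP3, from -0.45 to 0.24 for DIP5 and from -0.0714 to 0.35 for TAT2 at 10 min, and from -0.0076 to 0.47 for DIP5 and from -0.12 to 0.26 for PTR2 at 30 min. None of these passed the test. The cause was not tested. Over the alternatives the genes called among all genes ran from 711 to 1650 in wild type at 10 min (1140 as reported), from 609 to 1579 in the mutant at 10 min (1109), from 778 to 1764 in wild type at 30 min (1630) and from 694 to 2002 in the mutant at 30 min (1742). For mutant minus wild type they ran from 4 to 84 at 10 min (23) and from 0 to 269 at 30 min (40).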
